A study of Mus musculus with 24 samples.

Results

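RMA-KR day 14 was compared with RMA-KR day 7 in natural killer (NK) cells sorted from the spleens of lymphoma-bearing mice, to describe which transcripts differed between an intermediate and a late stage of growth of a tumor engineered to stimulate these cells. The members were 8 of the 24 libraries of the series, 5 labelled day 7 and 3 labelled day 14. Every one of the 8 came from WT mice of the C57BL/6J strain that had received RMA-KR cells intravenously, so that the day after injection was the labelled difference between the groups. The other libraries were 4 from control mice without tumor, 3 from RMA-KR day 2, and 3 each from days 2, 4 and 9 after injection of RMA, the parental lymphoma.

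RMA is a T cell lymphoma line. RMA-KR was made from it by knocking out B2m, which removes MHC class I from the cell surface, and by lentiviral expression of Rae1-β, a ligand of the activating receptor NKG2D, together with the fluorescent protein ZsGreen, and it was cloned by limiting dilution. The results therefore concern NK cells that met 1 engineered clone. NK cells were sorted as live cells positive for NKp46 or NK1.1 and negative for CD3, CD5 and T cell receptors, among other markers, and polyadenylated RNA of the bulk population was sequenced.

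NK cells are innate lymphocytes that destroy tumor cells with the contents of cytotoxic granules, and they divide once stimulated. A dividing cell copies its DNA in S phase with one set of enzymes and separates the copies in mitosis with another, and the genes of these phases are transcribed in successive waves. Checkpoint receptors such as TIGIT compete with activating receptors such as CD226 (DNAM-1) for shared ligands, and long stimulation of lymphocytes is known to raise several of them.

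Total counts were 14824109, 11466996, 8303060, 8131589 and 9626213 in day 7 replicates 1 to 5, and 11753788, 14863500 and 10293704 in day 14 replicates 1 to 3. Levels are given below as normalized CPM (counts scaled to a common library size), in the order of the replicate numbers. At the lowest depth of the 8 libraries after scaling, a floor of 3 counts corresponded to 0.344 normalized CPM, which covers counting error only. Between libraries of the same group, Pearson's r of log2 levels across genes ran from 0.874 to 0.938 (a description, since genes are not independent replicates), and counts differed by far more than sampling noise in every pair (chi-square per degree of freedom 25.3 to 95.2), so that no library was a copy of another. The design text says that the cells came from mice, but nothing ties a library to a named animal. The p-values measure the spread between samples, estimated from all 24 libraries of the series and not from these 8 alone.

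The label NK cell was checked against markers. The summed level of 10 NK cell markers was 35480, 36970, 23220, 23640 and 22060 CPM at day 7 and 29910, 32820 and 25740 CPM at day 14. Ncr1, which encodes the sorting marker NKp46, stood at 3781, 4040, 3346, 3285 and 2930 CPM at day 7 and at 1625, 3036 and 2477 CPM at day 14. The 13 T cell markers, which would also mark the tumor's lineage, summed to 376.3 to 484.4 CPM at day 7 and 418.5 to 506.9 CPM at day 14, mostly from Trbc1. All markers of the NK list were detected, and neither sum separated the days.

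The 5 day 7 libraries were not alike. Fos, an immediate early transcription factor, stood at 975, 986, 88.3, 67.3 and 75.8 CPM at day 7 and at 996, 699.6 and 957 CPM at day 14, and Jun, its partner in AP-1, which overlaps Junos, stood at 926, 1042, 91.2, 155 and 101 CPM at day 7 and at 481, 666 and 750.5 CPM at day 14. Day 7 replicates 3, 4 and 5 were low in both genes, whereas day 7 replicates 1 and 2 and all day 14 libraries were high. Control replicate 4 was the other library with such levels, at 83.9 CPM of Fos and 105 CPM of Jun. The same 3 day 7 libraries also had a count in more genes, 24676, 26285 and 24621, against 16651 and 15922 in day 7 replicates 1 and 2 and 18509, 16588 and 16385 at day 14, although their totals were lower. The labels give no batch that matches this split, and its origin was not tested. Medians of the functional gene lists are given below against each subset of the day 7 libraries.

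Markers of other cell types were measured as well. Igkc, the immunoglobulin kappa constant gene of B and plasma cells, stood at 1.67, 0, 1.72, 0.455 and 0.884 CPM at day 7 and at 1.25, 134 and 26.3 CPM at day 14. Day 14 replicates 2 and 3 stood apart. Igkc was outside the rule for named genes and was chosen after its values were seen. The 12 plasma cell markers summed to 206.2 to 313.6 CPM at day 7 and to 291.9, 565.1 and 143 CPM at day 14. Xbp1 was the most abundant, and Tnfrsf17 had no count in any of the 8. The 13 B cell markers summed to 296.4 to 529 CPM at day 7 and 429.9 to 606.7 CPM at day 14, mostly from Ighm. The 11 measured red blood cell markers summed to 435.3, 424.8, 519.8, 515.4 and 499.1 CPM at day 7 and to 713.6, 950.5 and 753.3 CPM at day 14, and Car2 alone accounted for 712.6, 950 and 749.5 CPM of the latter. The 16 macrophage and monocyte markers summed to 1175, 1431, 1552, 1308 and 1398 CPM at day 7 and to 1973, 1725 and 2030 CPM at day 14, mostly from Ccr2, with C1qb at 0. These last 2 sums were higher in every day 14 library. Their part in the results was not tested.

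The remaining marker sums overlapped between the days. Dendritic cell markers summed to 533.4 to 1264 CPM at day 7 and 807.3 to 935.4 CPM at day 14. The most abundant was Itgax. Those of ILC1 and other innate lymphoid cells summed to 245.2 to 496.7 and 214.6 to 331.3 CPM, led by Gata3. Platelet markers, led by Itgb3, were at 14.2, 5.4, 70.4, 58.8 and 94.2 CPM at day 7 and at 69.3, 64.4 and 133.7 CPM at day 14, and granulocyte markers stayed at or below 4.32 CPM, with Mpo, Elane, Camp and Cxcr2 at 0. Over the 10 marker lists edgeR's quasi-likelihood test called 0 of 81 tested entries (17 at an unadjusted p under 0.05), while DESeq2 called 5 with default settings and 4 with its beta prior. In the 11 tested genes of the ILC1 and other innate lymphoid list DESeq2 called 3 and 2 lower in these settings, against 149 and 57 of all 16956 genes. By edgeR 4 of them were lower at an unadjusted p under 0.05, against 1451 of all 17097 genes tested. In 2 of them all day 14 libraries were below all day 7 libraries, as in 2.43% of all genes tested. The median log2 fold changes were -0.08 for NK cells, -1.05 for T cells, -0.84 for B cells, 0.51 for plasma cells and 0.46 for macrophages and monocytes. They were -1.36 for granulocytes, -1.62 for dendritic cells, -0.94 for red blood cells, -0.73 for platelets and -0.91 for ILC1 and other innate lymphoid cells. Marker medians are not given against the subsets of the day 7 libraries.

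**Figure D1:**
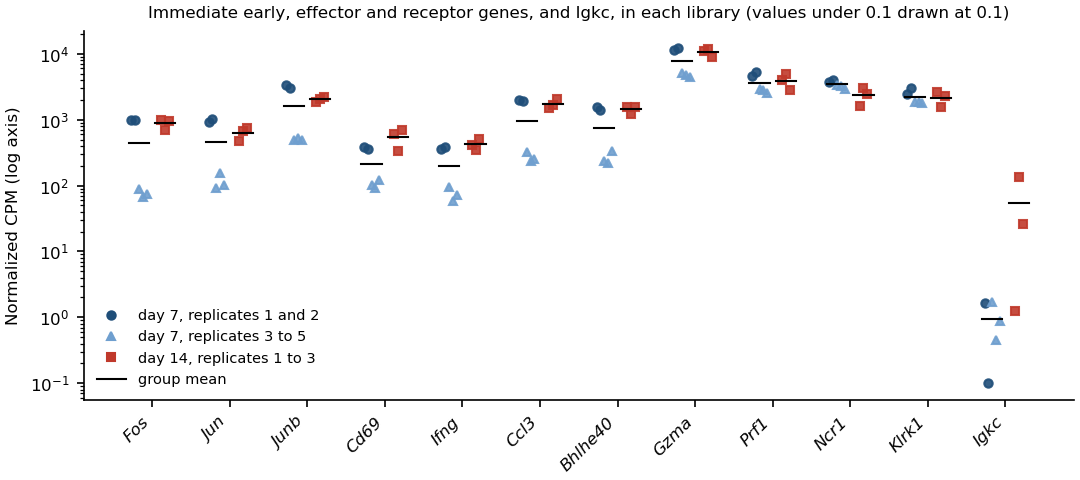
Normalized CPM on a log axis of immediate early, effector and receptor genes and of Igkc, chosen after its values were seen, in each of the 8 libraries, with the group mean as a black line. Fos was at 67.3 to 88.3 CPM in day 7 replicates 3 to 5 (triangles) and at 974.8 and 985.8 CPM in day 7 replicates 1 and 2 (circles), and Igkc reached 133.7 CPM in day 14 replicate 2 (squares).

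At day 14 the NK cells held many more transcripts of genes of mitosis than at day 7. Every tested gene of the G2 and mitosis list had a positive log2 fold change, and the sum of the list was 698, 932.2, 1014, 567 and 781.7 CPM at day 7 against 4519, 6396 and 3135 CPM at day 14. Transcripts of the checkpoint receptor Tigit, the secreted protein Spp1 (osteopontin), the granule protease Gzmk and the lectin Lgals3 were higher as well. Transcripts of the activating receptor Cd226, the cytokine Ltb and the surface protein Ly6c2 were lower. In bulk RNA a larger number of cells that express a gene cannot be told apart from more RNA of it per cell.

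Of 17097 genes tested with all 24 libraries in 1 model, 42 (0.246%) were called higher and 9 (0.0526%) lower at day 14, where a call required an adjusted p under 0.05 from the quasi-likelihood test of edgeR, adjusted after Benjamini and Hochberg, and a fold change above 2. At an unadjusted p under 0.05 there were 798 genes higher and 1451 lower, and the median log2 fold change of all genes tested was -0.16. The log2 fold changes of the called genes ran from 1.02 to 5.75 and from -3.00 to -1.25. The 3 day 14 libraries lay above all 5 day 7 libraries in 491 genes (2.87%) and below all of them in 415 (2.43%). Of the 51 called genes, 50 showed no overlap between the groups. The genes named below for the highest and lowest log2 fold changes were picked among genes without overlap. Their lack of overlap was thus set by the rule and adds no support to their calls.

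The number of calls depended on single libraries, on the tool and on the groups in the fit. Without day 7 replicate 4 there were 17 genes higher and 2 lower, and without day 14 replicate 1 there were 21 and 4. The lower genes numbered 2 without day 7 replicate 3 or day 14 replicate 3, 5 without day 7 replicate 5, 14 without day 7 replicate 2 and 23 without day 14 replicate 2. DESeq2 with default settings called 115 higher and 149 lower, and these included all 42 and all 9 genes. With only the 2 compared groups in the edgeR fit, 19 were called higher and 0 lower of 12705 genes tested. Of the 42 and 9 genes, 15 and 0 were kept there, so that every call of a lower gene was lost. Against day 7 replicates 3, 4 and 5 alone the calls were 124 higher and 51 lower of 16798 genes tested. Of these, 32 and 8 were shared. Against day 7 replicates 1 and 2 alone the calls were 6 and 3 of 18439 genes tested, of which 5 and 1 were shared. The median log2 fold change of all genes tested was 0.0 against day 7 replicates 1 and 2 alone and -0.18 against day 7 replicates 3, 4 and 5 alone. With at least 10 counts in every library it was -0.02. Counts of list members called and list medians against either subset, given below, are to be read beside these numbers.

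**Figure D2:**
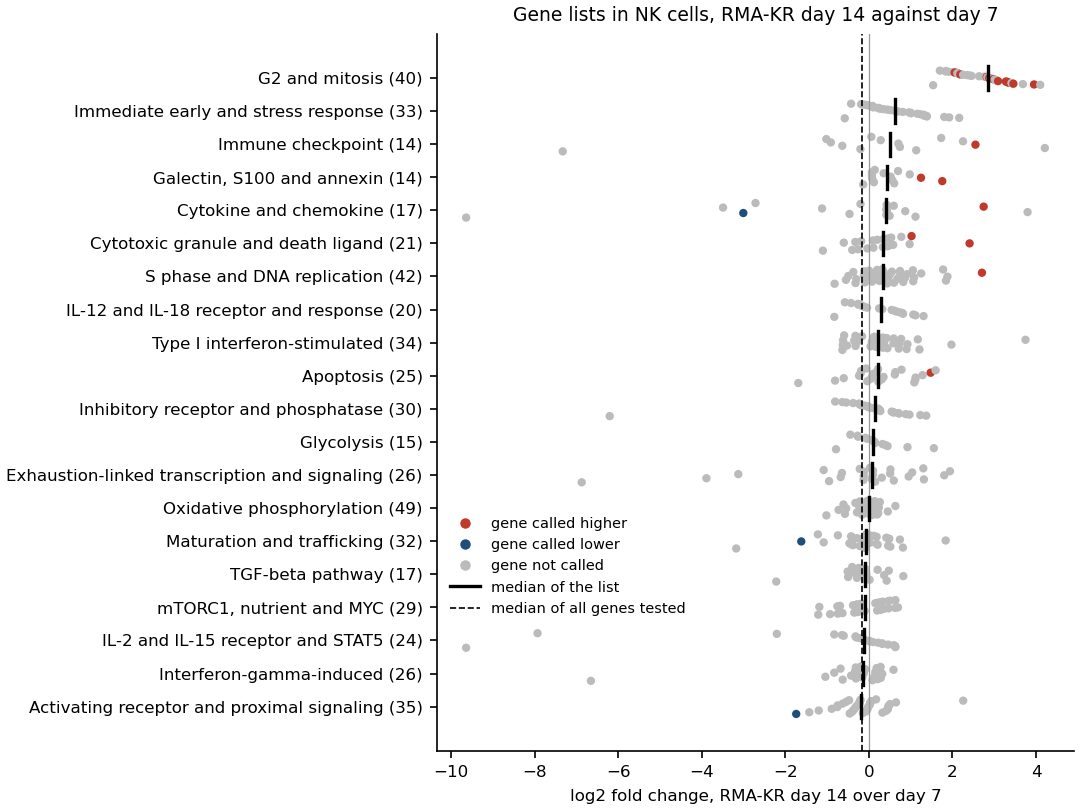
Log2 fold change, day 14 over day 7, of every tested gene of 20 gene lists (number of genes in brackets), with genes called higher in red, called lower in blue and not called in gray. The thick black line is the median of the list and the dashed line that of all genes tested (-0.16), and the median of the G2 and mitosis list (2.86) lies farthest to the right.

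All 40 genes of the G2 and mitosis list were tested. All 40 had a positive log2 fold change, against 41% of all genes tested, and the median was 2.86. In 35 of the 40 (87.5%) every day 14 library was above every day 7 library, against 2.87% of all genes tested. edgeR called 13 of them higher (32.5%, against 0.246% of all genes tested) and none lower, with 39 positive and 0 negative genes at an unadjusted p under 0.05, and DESeq2 called 27 higher and 0 lower. The median was 2.72 against day 7 replicates 1 and 2 alone and 2.89 against day 7 replicates 3, 4 and 5 alone, with 0 and 10 members called higher, and over all settings 0 to 38 were called higher. The difference in the level of this list was thus present in both subsets of day 7 libraries, and the number of calls was not.

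Many genes of mitosis share a promoter sequence, the cell cycle genes homology region (CHR), at which repressing and activating complexes that contain MuvB proteins are known to bind, and often CCAAT boxes that bind NF-Y. Promoters from RefSeq (GRCm38.p6, 250 bases before to 50 after the annotated start) were available for 32 of the 40 genes, as 34 promoters. The letters TTTGAA or TTCGAA, on either strand, were in 28 of the 34 (82.4%), against 6316 of all 32851 promoters of the same length (19.2%), 15.2% of those of tested genes and 6 of 41 (14.6%) of the S phase and DNA replication list. Among the genes of the G2 and mitosis list called higher they were in 8 of 11 promoters (72.7%). They were in 19 of 34 (55.9%) of all genes called higher and in 0 of 8 of the genes called lower. The letters CCAAT, on either strand, were in 82.4% of the 34, in 37.4% of all promoters and in 23 of 41 (56.1%) of the S phase and DNA replication list. The 150 bases from 100 before the start to 50 after it are shown for the 4 called genes of the list with the highest log2 fold changes among those with a RefSeq promoter that holds these CHR letters there, in the direction of transcription, with CHR and CCAAT letters of either strand in capitals. They are Ube2c at chr2:164769829-164769978 on the plus strand, Plk1 at chr7:122159335-122159484 on the plus strand, Ccnb2 at chr9:70421505-70421654 on the minus strand and Kif11 at chr19:37376282-37376431 on the plus strand.
Ube2c: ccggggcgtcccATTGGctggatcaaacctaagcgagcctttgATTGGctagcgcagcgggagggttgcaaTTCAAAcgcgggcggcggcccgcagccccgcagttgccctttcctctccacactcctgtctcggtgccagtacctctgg
Plk1: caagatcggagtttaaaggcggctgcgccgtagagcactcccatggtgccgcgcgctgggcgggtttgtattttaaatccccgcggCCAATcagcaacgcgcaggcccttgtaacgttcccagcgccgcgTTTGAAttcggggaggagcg
Ccnb2: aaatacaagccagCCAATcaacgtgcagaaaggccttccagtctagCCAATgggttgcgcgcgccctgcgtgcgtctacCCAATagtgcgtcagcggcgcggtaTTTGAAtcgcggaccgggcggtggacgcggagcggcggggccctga
Kif11: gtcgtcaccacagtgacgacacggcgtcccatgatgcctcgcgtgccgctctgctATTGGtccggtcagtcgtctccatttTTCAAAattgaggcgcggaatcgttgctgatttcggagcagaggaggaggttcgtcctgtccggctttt
Each holds 1 CHR match, which begins at position -29 in Ube2c, 30 in Plk1, 4 in Ccnb2 and -19 in Kif11 when the annotated start is counted as 0. The number of CCAAT matches is 2, 1, 3 and 1. The promoters of Birc5, Ccnb1 and Nusap1, also called genes of the list, hold no CHR match in the same 150 bases and are not shown. A match describes the letters and does not show that a protein binds there.

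Plk1, a kinase that drives entry into mitosis, stood at 9.86, 12.6, 2.18, 8.42 and 9.52 CPM at day 7 and at 95.5, 136 and 51.3 CPM at day 14. Ccnb2, a B-type cyclin that activates the mitotic kinase CDK1, stood at 15.3, 30.1, 26.4, 8.3 and 31.1 CPM at day 7 and at 257, 266 and 150.3 CPM at day 14. Ube2c, an enzyme that marks cyclins for destruction, stood at 7.36, 8.82, 5.05, 1.71 and 2.36 CPM at day 7 and at 82.3, 107 and 47.5 CPM at day 14. In all of these, whose promoters are printed above, the lowest day 14 library was above the highest day 7 library, as the rule for naming them required. Day 14 replicate 3 was the lowest of its group in each. The log2 fold changes (± SE) were 3.46 ± 0.53 for Plk1, 3.34 ± 0.68 for Ccnb2 and 3.95 ± 0.78 for Ube2c, with adjusted p = 0.00319, 0.0267 and 0.0223 in edgeR's quasi-likelihood test. That of Ube2c was 3.28 against day 7 replicates 1 and 2 alone and 4.7 against day 7 replicates 3, 4 and 5 alone. Ccnb1, the other main B-type cyclin, stood at 1.25 to 8.28 CPM at day 7 and at 30.8, 57.3 and 20.7 CPM at day 14 (log2 fold change 2.88 ± 0.63, adjusted p = 0.044 in the same edgeR test). Mad2l1, which delays anaphase until chromosomes are attached, had a log2 fold change of 1.46 ± 0.31 (adjusted p = 0.0366, edgeR) and belonged to none of the lists. Ccnb1 and Mad2l1 were outside the rule for named genes and were chosen after their values were seen.

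Other called genes encode motor and spindle proteins. Kif11, the kinesin that pushes spindle poles apart, stood at 18.7, 36.4, 9.63, 13.9 and 20.5 CPM at day 7 and at 192, 296 and 91.5 CPM at day 14. Kif20a, a kinesin of the central spindle, stood at 12.7, 16.1, 16.1, 6.6 and 4.81 CPM at day 7 and at 87.1, 159.6 and 86.7 CPM at day 14. Tpx2, which nucleates spindle microtubules and activates Aurora A, stood at 8.88, 6.12, 25.1, 2.84 and 19.3 CPM at day 7 and at 78.7, 199 and 99.9 CPM at day 14. Ckap2l, a spindle protein, stood at 11.4, 7.83, 2.64, 7.51 and 10.3 CPM at day 7 and at 96.1, 114 and 52 CPM at day 14. By the rule that picked these genes the groups did not overlap in any of them. The level at day 7 was lowest in replicate 3 for Kif11 and Ckap2l and in replicate 4 for Tpx2, so that no day 7 library was the lowest throughout. Log2 fold changes were 3.28 ± 0.46, 3.30 ± 0.59, 3.34 ± 0.73 and 3.45 ± 0.73, with adjusted p = 0.0013, 0.00958, 0.0446 and 0.0342 in edgeR's quasi-likelihood test. That of Tpx2 was 4.05 against day 7 replicates 1 and 2 alone and 2.99 against day 7 replicates 3, 4 and 5 alone. Kif22, a kinesin that moves chromosome arms, stood at 18.1, 14.5, 18.7, 26.6 and 23.9 CPM at day 7 and at 185, 204 and 61 CPM at day 14, and its call held in every setting tried (log2 fold change 2.88 ± 0.36, adjusted p = 0.00084 in the edgeR test). Nusap1 (log2 fold change 2.82 ± 0.59) and Tacc3 (2.56 ± 0.44), which bind spindle microtubules, were also called. Kif22, Nusap1 and Tacc3 were chosen after their values were seen. Kif11, Kif20a, Kif22, Nusap1 and Tacc3 overlap other genes in the annotation (AC137605.4, Cdc23, Gm31749, Oip5 and Tmem129), and the strand setting of the counting is not given in the sources used here, so their counts are uncertain to that extent.

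**Figure D3:**
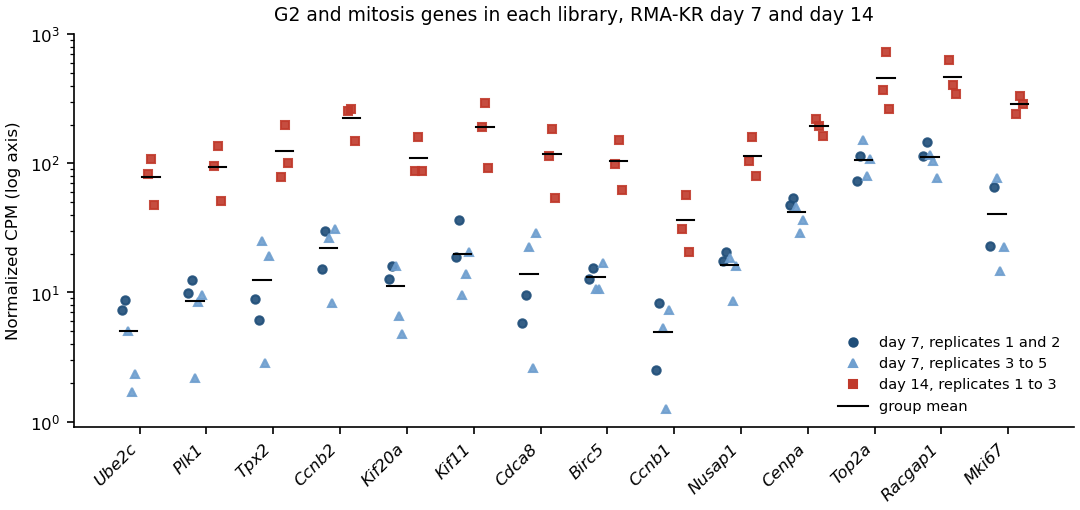
Normalized CPM on a log axis of the 13 called genes of the G2 and mitosis list and of Mki67 in each of the 8 libraries, with group means as black lines. In each of the 14 genes the 3 day 14 libraries (squares) lie above all 5 day 7 libraries, from Ccnb1 at 20.7 to 57.3 CPM against 1.25 to 8.28 CPM to Racgap1 at 345.7 to 637.3 CPM against 77 to 146.7 CPM.

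Cenpa, the histone variant that marks centromeres, stood at 47.5, 53.9, 45.6, 28.9 and 36.1 CPM at day 7 and at 223, 194 and 164 CPM at day 14. Top2a, the topoisomerase that untangles sister chromatids, stood at 72.8, 115, 151, 80.2 and 109 CPM at day 7 and at 369.9, 735 and 265 CPM at day 14. Cdca2, which recruits a phosphatase to chromosomes at mitotic exit, stood at 17.6, 21.6, 7.11, 4.32 and 1.18 CPM at day 7 and at 86.3, 98.2 and 109.8 CPM at day 14. The groups did not overlap in any of them, and the highest day 14 library was replicate 1 for Cenpa, 2 for Top2a and 3 for Cdca2. Cdca8, the borealin subunit of the chromosomal passenger complex, stood at 5.83, 9.63, 22.5, 2.62 and 28.8 CPM at day 7 and at 114, 186 and 54.2 CPM at day 14, and its counts are uncertain because it overlaps 9930104L06Rik. Log2 fold changes were 2.19 ± 0.30, 2.11 ± 0.44, 3.24 ± 0.65 and 3.09 ± 0.62, with adjusted p = 0.0013, 0.0342, 0.0261 and 0.0261 in edgeR's quasi-likelihood test. They were 2.32 for Cdca2 and 3.92 for Cdca8 against day 7 replicates 1 and 2 alone, and 4.55 and 2.71 against day 7 replicates 3, 4 and 5 alone. The complex's subunits Birc5 (survivin) and Incenp, chosen after their values were seen, had log2 fold changes of 2.98 ± 0.56 and 1.55 ± 0.25 and were called as well.

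Racgap1, which builds the central spindle for cytokinesis, stood at 114, 147, 117, 104 and 77 CPM at day 7 and at 637, 408 and 346 CPM at day 14. Anln (anillin), the scaffold of the contractile ring, stood at 0, 0.18, 2.29, 0.228 and 0.687 CPM at day 7 and at 17.7, 48.8 and 41 CPM at day 14. All day 14 libraries were above all day 7 libraries in both. Anln was close to the counting floor at day 7, with no more than 20 counts in any day 7 library. The log2 fold changes were 2.05 ± 0.29 and 5.75 ± 0.99 (adjusted p = 0.0013 and 0.0082, edgeR), and that of Anln ran from 2.63 to 8.58 over the other settings, with 7.03 without day 7 replicate 3. Mki67, which coats chromosomes in dividing cells and is the common marker of proliferation, stood at 22.8, 65.2, 77.3, 14.8 and 22.4 CPM at day 7 and at 243, 334 and 289.9 CPM at day 14. All day 14 libraries were above all day 7 libraries, yet the 5 day 7 values spread widely, and Mki67 was not called (log2 fold change 2.84 ± 0.77, adjusted p = 0.151 in edgeR's quasi-likelihood test, 1.52e-22 to 0.685 over the other settings).

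Several of these calls were lost when 1 library was left out. In each such fit the adjusted p was missed, while the fold stayed above 2. The log2 fold changes where the call was lost were 2.87 to 3.75 for Tpx2 and 3.22 to 3.63 for Ckap2l. They were 3.73 to 3.94 for Ube2c and 1.62 to 2.27 for Top2a. The edgeR calls of Plk1, Kif11, Kif22, Cenpa, Racgap1, Anln, Tacc3 and Incenp held whichever library was left out, but except for Kif22 each was lost in 1 or 2 other settings. Over all settings their adjusted p reached 0.158 for Plk1, 0.127 for Kif11, 0.0401 for Kif22, 0.114 for Cenpa, 0.127 for Racgap1, 0.102 for Anln, 0.0615 for Tacc3 and 0.216 for Incenp in edgeR. In edgeR's quasi-likelihood test the others were lost for Ube2c without day 7 replicates 3, 4 or 5 or day 14 replicate 1 (adjusted p = 0.0618 to 0.0994), Kif20a without day 7 replicate 4 (adjusted p = 0.0556), Cdca8 without day 7 replicates 1, 2 or 4 or day 14 replicates 1 or 2 (adjusted p = 0.0592 to 0.08) and Cdca2 without day 7 replicates 3 or 4 or day 14 replicates 1 or 3 (adjusted p = 0.0558 to 0.109). In edgeR they were lost for Ccnb2 without day 7 replicates 1, 3, 4 or 5 or day 14 replicates 1 or 2 (adjusted p = 0.0521 to 0.122), Ckap2l without day 7 replicates 1, 2, 3, 4 or 5 or day 14 replicates 1 or 2 (adjusted p = 0.0631 to 0.135), Top2a without day 7 replicates 1, 2, 3, 4 or 5 or day 14 replicates 1 or 2 (adjusted p = 0.0524 to 0.137) and Tpx2 whichever of the 8 libraries was left out (adjusted p = 0.056 to 0.158). For genes named outside the rule the edgeR calls were lost for Birc5 without day 7 replicates 3 or 4 (adjusted p = 0.0565 to 0.0739), Nusap1 without day 7 replicates 1, 2, 3, 4 or 5 or day 14 replicates 1 or 2 (adjusted p = 0.0553 to 0.142), Ccnb1 without day 7 replicates 1, 3, 4 or 5 or day 14 replicates 1 or 2 (adjusted p = 0.07 to 0.139) and Mad2l1 without day 7 replicates 1, 2, 3 or 4 or day 14 replicates 1 or 2 (adjusted p = 0.0702 to 0.159). Over all settings the adjusted p of Ube2c ran from 2.21e-20 to 0.519, that of Kif20a from 4.94e-15 to 0.302, that of Cdca8 from 1.28e-18 to 0.18 and that of Cdca2 from 1.94e-12 to 0.41. The ranges were 1.74e-25 to 0.41 for Ccnb2, 1.36e-12 to 0.523 for Ckap2l, 8.46e-19 to 0.304 for Top2a and 1.11e-20 to 0.22 for Tpx2. They were 1.42e-16 to 0.351 for Birc5, 4.99e-15 to 0.537 for Nusap1, 4.87e-05 to 0.477 for Ccnb1 and 0.000642 to 0.251 for Mad2l1. Every gene of this paragraph had a positive log2 fold change in every setting tried.

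The summed level of the 42 genes of the S phase and DNA replication list was 2899, 3246, 6779, 3785 and 5503 CPM at day 7 and 4257, 7748 and 4117 CPM at day 14, so that the groups overlapped. Of the 42 genes, 31 had a positive log2 fold change (73.8%, against 41% of all genes tested) and the median was 0.34. In 5 of them (11.9%, against 2.87%) every day 14 library was above every day 7 library. edgeR called 1 higher (2.38%, against 0.246%) and 0 lower (7 and 0 at an unadjusted p under 0.05), and DESeq2 also called 1. The difference between this list and the G2 and mitosis list was not tested. Against day 7 replicates 1 and 2 alone the median was 1.16, and against day 7 replicates 3, 4 and 5 alone it was 0.08, so the result for this list changed with the day 7 libraries used. Mcm6, a subunit of the replicative helicase, stood at 474, 483, 785, 286 and 714 CPM at day 7 and at 734, 898 and 429 CPM at day 14 (log2 fold change 0.32 ± 0.27, adjusted p = 0.618, edgeR). Mcm5, another subunit, stood at 181, 161, 649, 371 and 637 CPM at day 7 and at 238, 587 and 300.1 CPM at day 14, with the highest day 7 values in replicates 3 and 5 (log2 fold change -0.09 ± 0.43, adjusted p = 0.952, edgeR, and 1.12 against day 7 replicates 1 and 2 alone).

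The called gene was Rrm2, the regulated subunit of ribonucleotide reductase, which makes the building blocks of DNA. Rrm2 stood at 30.5, 35.6, 47.7, 27.2 and 38.2 CPM at day 7 and at 185, 344 and 173 CPM at day 14. Each day 14 library was above each day 7 library, the log2 fold change was 2.71 ± 0.47 and the adjusted p = 0.0082 in edgeR's quasi-likelihood test, a call that held whichever library was left out and was lost in 2 other settings (up to 0.219). Other genes of chromatin and of the nucleus outside the lists were called too and were chosen after their values were seen. They were Asf1b, a histone chaperone (log2 fold change 1.81 ± 0.33), H2afx, a histone variant of the DNA damage response (1.78 ± 0.31), Lmnb1, a protein of the nuclear lamina (1.66 ± 0.31), and Hmgb2, a chromatin protein of dividing cells (1.38 ± 0.30). In edgeR's quasi-likelihood test these calls were lost for Asf1b without day 7 replicate 4 or day 14 replicate 2 (adjusted p = 0.062 to 0.0712), H2afx without day 14 replicate 2 (adjusted p = 0.0593), Lmnb1 without day 7 replicate 4 or day 14 replicate 2 (adjusted p = 0.062 to 0.0799) and Hmgb2 without day 7 replicates 1, 3, 4 or 5 or day 14 replicates 1 or 2 (adjusted p = 0.0767 to 0.172). Over all settings the adjusted p ran from 4.81e-09 to 0.114, 2.36e-06 to 0.302, 8.11e-08 to 0.237 and 0.000591 to 0.67, in the same order.

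Along the RMA-KR course the sums of the lists followed different orders. The summed level of the S phase list was 2542 ± 164.8 CPM (SD, n = 4) in control NK cells, 2490 ± 196.9 (n = 3) at day 2, 4442 ± 1645 (n = 5) at day 7 and 5374 ± 2057 (n = 3) at day 14. That of the G2 and mitosis list was 638.5 ± 326.2 CPM in controls, 1067 ± 451.2 at day 2, 798.6 ± 179.1 at day 7 and 4683 ± 1637 at day 14. All 5 day 7 libraries were above every control library for S phase (2899 CPM or more against 2723 CPM or less), while for mitosis the day 7 and control libraries overlapped. In mice with RMA the G2 and mitosis list was high at both later times, 5783 ± 838.8 CPM at day 4 and 5717 ± 1423 CPM at day 9 (n = 3 each). The S phase list was at 9643 ± 2047 and 7470 ± 2450 CPM there, with both means above that of RMA-KR day 14. These means describe the groups and were not compared by a test.

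**Figure D4:**
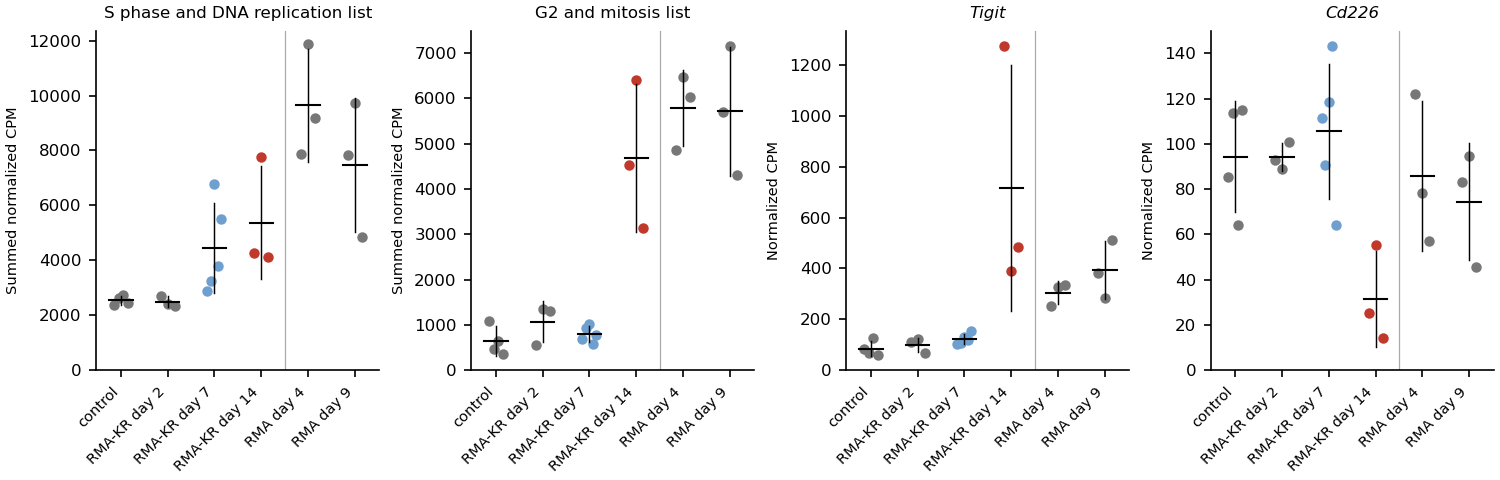
Summed normalized CPM of the S phase and G2 and mitosis lists and normalized CPM of Tigit and Cd226 in each library, with day 7 in blue, day 14 in red, other groups in gray, means as horizontal lines and the SD as vertical lines. The G2 and mitosis list is at 567 to 1014 CPM at RMA-KR day 7 and at 3135 to 6396 CPM at day 14, and at 4300 CPM or more in RMA at days 4 and 9.

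The change from day 7 to day 14 in RMA-KR was tested against the change from day 4 to day 9 in RMA, with the reservation that the days differ. edgeR's quasi-likelihood test called 0 of 17097 genes (0%) for this difference, with 1847 at an unadjusted p under 0.05, and DESeq2 called 72 with default settings and 17 with its beta prior. The medians of the G2 and mitosis list were 2.86 in RMA-KR and 0.00 in RMA, and those of the S phase list 0.34 and -0.28. For Plk1 the log2 fold change was 3.46 in RMA-KR and -0.55 in RMA, for Racgap1 2.05 and 0.11, and for Tigit 2.55 and 0.36. The differences were 4.01, 1.94 and 2.19 on the log2 scale, with unadjusted p = 4.83e-05, 0.000239 and 0.00035 in the edgeR test. After adjustment p was 0.369 for each of these 3 genes in that test, so that it showed none of them to differ between the tumors. The DESeq2 results of these 3 genes for the difference are not given here.

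Among checkpoint genes Tigit stood out. Tigit encodes an inhibitory receptor for CD155 and related ligands. Tigit stood at 103, 105, 129, 119.8 and 155 CPM at day 7 and at 1274, 391 and 484 CPM at day 14. All day 14 libraries were above all day 7 libraries, and day 14 replicate 1 was the highest by a wide margin. Its log2 fold change was 2.55 ± 0.34 (adjusted p = 0.0013 in edgeR's quasi-likelihood test), and Tigit was called in each of the 19 other settings, with log2 fold changes of 1.85 to 2.88. It was 1.85 without day 14 replicate 1. In the rest of the course the level was 84.4 ± 30.3 CPM (SD, n = 4) in controls and 100.5 ± 27.5 CPM (n = 3) at RMA-KR day 2, and in RMA it was 305 ± 45.8 CPM at day 4 and 393 ± 114 CPM at day 9 (n = 3 each), so that the lowest day 14 library of RMA-KR was within the range of RMA day 9.

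The rest of the checkpoint list was mixed. Of its 14 tested genes, 9 had a positive log2 fold change, Tigit was called higher and 0 were called lower by edgeR (4 and 3 at an unadjusted p under 0.05, and 1 and 0 by DESeq2), and the median was 0.50. The called share was 7.14%, against 0.246% of all genes tested. The median was 0.16 against day 7 replicates 1 and 2 alone and 1.16 against day 7 replicates 3, 4 and 5 alone. Lag3, a receptor for MHC class II, stood at 11.7, 8.1, 44.2, 41.2 and 80.4 CPM at day 7 and at 115, 144 and 109.9 CPM at day 14, where day 7 replicates 1 and 2 were the lowest (log2 fold change 1.73 ± 0.78, adjusted p = 0.371 in the edgeR test, 0.000452 to 0.642 over the other settings). Its log2 fold change was 3.62 against those 2 libraries alone and 1.15 against day 7 replicates 3, 4 and 5 alone. Havcr2, which encodes TIM-3, stood at 0, 0, 10.2, 1.36 and 18.6 CPM at day 7 and at 30.6, 41.1 and 14.5 CPM at day 14, with overlap between the groups (2.25 ± 1.51, adjusted p = 0.517, edgeR, and 3.32 without day 7 replicate 5). Nt5e, the ectoenzyme CD73 that makes adenosine, stood at 32.3, 16.6, 12.4, 49.4 and 3.24 CPM at day 7 and at 88.2, 10.8 and 51 CPM at day 14, and the groups overlapped (1.13 ± 0.72, adjusted p = 0.489, edgeR, and 0.45 without day 14 replicate 1). Pdcd1, which encodes PD-1, stayed at 0.455 CPM or less at day 7 and at 1.78, 0 and 0 CPM at day 14, below the filter on low counts. Lag3 was above every day 7 library in all day 14 libraries but failed the adjustment.

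Klrg1 and Cd244a also belong to the checkpoint list. Klrg1, a cadherin receptor of mature NK cells, stood at 804, 707, 306, 321 and 266 CPM at day 7 and at 753, 1025 and 636 CPM at day 14. Cd244a, which encodes the receptor 2B4 and overlaps Ly9, stood at 881, 1022, 583, 616 and 536 CPM at day 7 and at 748, 790 and 738 CPM at day 14. Day 7 replicates 1 and 2 were the highest of their group in both, the groups overlapped, and neither gene was called (log2 fold changes 0.74 ± 0.30 and 0.06 ± 0.18). For Klrg1 it was 0.08 against day 7 replicates 1 and 2 alone and 1.43 against the other day 7 libraries. In the list of inhibitory receptors and phosphatases 17 of 30 genes had a positive log2 fold change, and the median was 0.16. Klri2, a lectin-like receptor of NK cells, stood at 1388, 1701, 1013, 904 and 838 CPM at day 7 and at 1387, 1045 and 957 CPM at day 14, and Dok2, an adaptor that dampens kinase signaling and overlaps Xpo7, stood at 1299, 1672, 822, 983 and 856 CPM at day 7 and at 880, 1130 and 878 CPM at day 14. Both overlapped between the groups (log2 fold changes -0.05 ± 0.20 and -0.23 ± 0.18).

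Of 26 tested genes of the list linked to exhaustion, 15 had a positive log2 fold change, and the median was 0.08. edgeR called 0 (4 higher and 4 lower at an unadjusted p under 0.05), DESeq2 called 1 higher and 1 lower with default settings, and 2 higher with its beta prior. The median was -0.06 against day 7 replicates 1 and 2 alone, with 0 calls, and 0.31 against day 7 replicates 3, 4 and 5 alone, with 3 called higher and 1 lower by edgeR. Tox, a regulator of chromatin in exhausted T cells, stood at 91.1, 79.8, 100.4, 104 and 95.8 CPM at day 7 and at 165, 120.2 and 142 CPM at day 14, so that all day 14 libraries were higher, by less than the fold required (log2 fold change 0.60 ± 0.20, adjusted p = 0.295 in edgeR's quasi-likelihood test). Id2, needed for NK cell identity, stood at 1669, 1381, 806, 936 and 839 CPM at day 7 and at 1003, 1084 and 1032 CPM at day 14 (log2 fold change -0.12 ± 0.20, 0.27 against day 7 replicates 3, 4 and 5 alone). Bhlhe40, which supports cytokine production, stood at 1543, 1383, 236, 223 and 339.5 CPM at day 7 and at 1586, 1202 and 1540 CPM at day 14 and followed the split of the day 7 libraries (0.95 ± 0.49 in all, -0.02 against replicates 1 and 2 and 2.44 against replicates 3, 4 and 5), and it overlaps 0610040F04Rik.

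**Figure D5:**
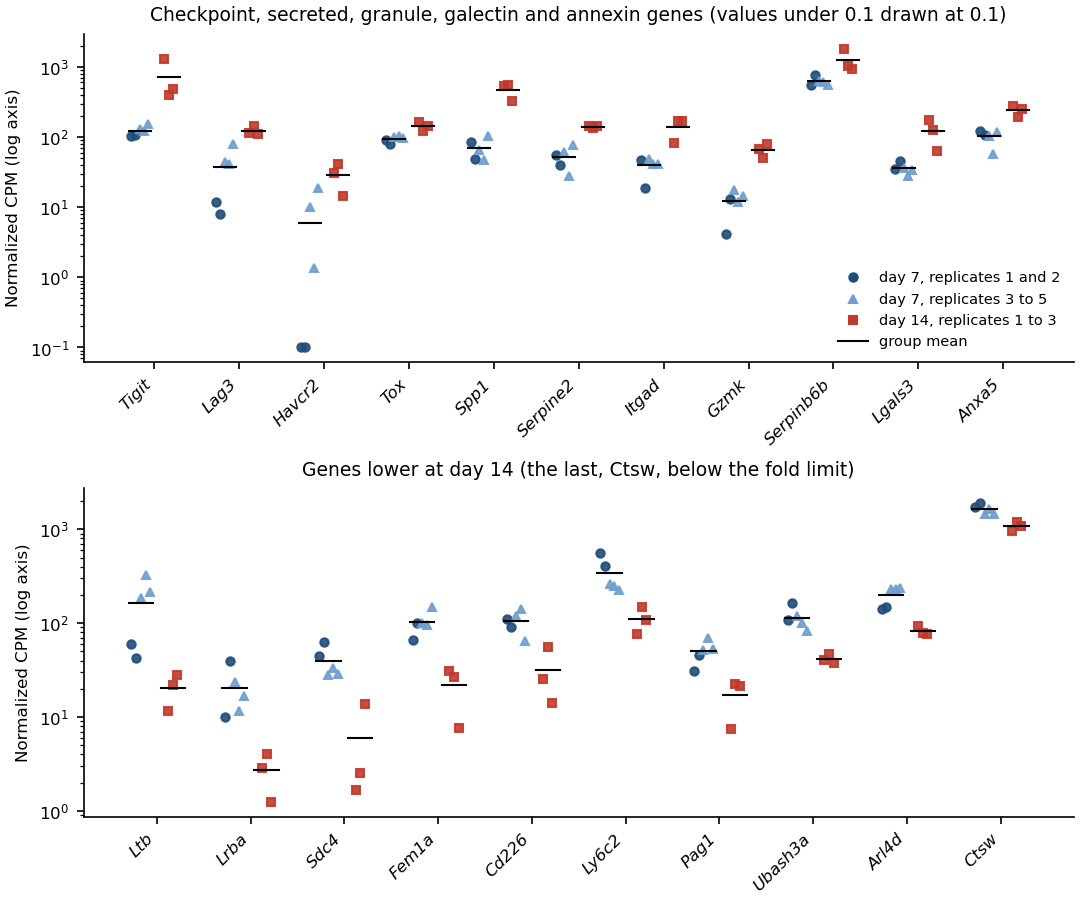
Normalized CPM on a log axis in each of the 8 libraries for genes of the checkpoint, secreted, granule, galectin and annexin groups (top) and for genes lower at day 14 (bottom), with group means as black lines. Tigit lies at 390.8 to 1274 CPM at day 14 against 102.7 to 154.7 CPM at day 7, and Cd226 at 14.3 to 55.2 CPM against 64.2 to 143.3 CPM.

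On the activating side Cd226 fell. Cd226 encodes DNAM-1, which binds the same ligands as TIGIT and triggers killing. Cd226 stood at 111, 90.8, 118, 143 and 64.2 CPM at day 7 and at 25.3, 55.2 and 14.3 CPM at day 14. The highest day 14 library was below the lowest day 7 library, and day 14 replicate 3 was the lowest of all. Its log2 fold change was -1.74 ± 0.38 (adjusted p = 0.0446 in edgeR's quasi-likelihood test). The log2 value was -2.39 without day 14 replicate 2. By edgeR the call was lost for Cd226 without day 7 replicates 1, 3 or 4 or day 14 replicates 1 or 3 (adjusted p = 0.0754 to 0.255), and the adjusted p over all settings ran from 5.19e-05 to 0.255. Control NK cells had 94.4 ± 24.3 CPM (SD, n = 4) and RMA day 9 had 74.4 ± 25.8 CPM (n = 3). Of the 35 activating receptor and proximal signaling genes, 12 had a positive log2 fold change, Cd226 was called lower and 0 were called higher by edgeR (5 and 3 at an unadjusted p under 0.05, 1 and 0 by DESeq2), and the median was -0.20. Of all genes tested 0.0526% were called lower. The median was -0.33 against day 7 replicates 1 and 2 alone and -0.09 against day 7 replicates 3, 4 and 5 alone, with 0 and 2 called lower.

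Other activating receptors were not called. Klrk1, which encodes NKG2D, the receptor for the Rae1-β on the tumor, stood at 2445, 3044, 1834, 1847 and 1779 CPM at day 7 and at 2603, 1549 and 2295 CPM at day 14 (log2 fold change -0.03 ± 0.17, adjusted p = 0.966, edgeR). For Ncr1, whose levels are given above, the log2 fold change was -0.55 ± 0.16 (adjusted p = 0.212, edgeR), and day 14 replicate 2 overlapped the day 7 range. Of genes that restrain receptor signaling, Pag1, an adaptor that recruits the inhibitory kinase CSK, stood at 31.2, 45.3, 52.2, 69.95 and 52.6 CPM at day 7 and at 7.39, 22.6 and 21.4 CPM at day 14, and Ubash3a, a phosphatase-like suppressor of receptor signaling in lymphocytes, stood at 108, 163, 118, 101 and 81.9 CPM at day 7 and at 40.6, 46.7 and 37.5 CPM at day 14. All day 14 libraries were below all day 7 libraries in both. Pag1 fell by 1.55 and Ubash3a by 1.46 on the log2 scale (SE 0.33 and 0.30, adjusted p = 0.0402 and 0.0322 in edgeR's quasi-likelihood test). These edgeR calls were lost for Pag1 without day 7 replicates 3, 4 or 5 or day 14 replicates 1 or 3 (adjusted p = 0.075 to 0.249) and for Ubash3a without day 7 replicates 1, 2, 3 or 4 or day 14 replicates 1, 2 or 3 (adjusted p = 0.0507 to 0.168), and over all settings the adjusted p ran from 0.000329 to 0.558 and from 0.000186 to 0.168. Pag1 overlaps Gm24786 and Gm16337.

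Maturation and trafficking genes had 12 of 32 positive log2 fold changes and a median of -0.07. edgeR called 0 higher and 1 lower, against 0.0526% of all genes tested (5 and 5 at an unadjusted p under 0.05, and 1 and 3 by DESeq2). The median was 0.02 against day 7 replicates 1 and 2 alone, with 0 called higher and 1 lower. It was -0.06 against day 7 replicates 3, 4 and 5 alone, with 2 and 2. The gene called lower by edgeR with all day 7 libraries was Ly6c2, a surface protein of mature NK cells. Ly6c2 stood at 559.7, 402, 259, 247 and 224 CPM at day 7 and at 76.4, 147 and 107 CPM at day 14. All day 14 libraries were below all day 7 libraries, of which replicates 1 and 2 were the highest. Its log2 fold change was -1.62 ± 0.29 (adjusted p = 0.00939, edgeR), a call lost for Ly6c2 without day 14 replicates 1 or 3 (adjusted p = 0.0614 to 0.0983), with 4.67e-09 to 0.162 over all settings. The fold change of Ly6c2, as log2, was -2.13 against day 7 replicates 1 and 2 alone and -1.14 against day 7 replicates 3, 4 and 5 alone, and reads may be shared with the near-identical Ly6c1. Itgb2, the beta-2 integrin chain, stood at 4944, 4821, 3204, 2965 and 3169 CPM at day 7 and at 3425, 4194 and 3239 CPM at day 14 and was not called (log2 fold change -0.08 ± 0.16). Itgad, the alpha-D integrin chain, stood at 47.3, 18.5, 48.1, 41.6 and 41.4 CPM at day 7 and at 82.1, 171 and 169.5 CPM at day 14 and was not called (log2 fold change 1.84 ± 0.48, adjusted p = 0.116, edgeR), although the groups did not overlap. Itgad overlaps Cox6a2 and 4931431B13Rik.

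The other genes called lower have no shared list. Fem1a, a substrate receptor of a ubiquitin ligase, stood at 66.2, 99.8, 99.9, 94.5 and 148 CPM at day 7 and at 31.1, 26.5 and 7.71 CPM at day 14. Sdc4, a heparan sulfate proteoglycan, stood at 44.8, 62.7, 27.9, 33.2 and 28.8 CPM at day 7 and at 1.69, 2.53 and 13.8 CPM at day 14. Lrba, which protects CTLA-4 from degradation in T cells, stood at 9.99, 39.8, 23.6, 11.5 and 16.9 CPM at day 7 and at 2.85, 4.08 and 1.25 CPM at day 14. The groups did not overlap in any of these genes, as the rule for naming them required. Arl4d, a small GTPase, stood at 143, 149.9, 230.4, 231 and 236 CPM at day 7 and at 93, 79.3 and 77.2 CPM at day 14, also without overlap. Log2 fold changes were -2.22 ± 0.37, -2.72 ± 0.60, -2.89 ± 0.64 and -1.25 ± 0.26, with adjusted p = 0.0065, 0.0446, 0.0447 and 0.0322 in edgeR's quasi-likelihood test. The edgeR call of Fem1a held whichever library was left out, though not in every setting, and edgeR calls were lost for Sdc4 without day 7 replicates 1, 2, 3, 4 or 5 or day 14 replicates 1 or 2 (adjusted p = 0.065 to 0.237), Lrba without day 7 replicates 2, 3, 4 or 5 or day 14 replicates 1, 2 or 3 (adjusted p = 0.0638 to 0.243) and Arl4d without day 7 replicates 3, 4 or 5 or day 14 replicates 1, 2 or 3 (adjusted p = 0.0756 to 0.154). Over all settings the adjusted p ran from 1.13e-07 to 0.133 for Fem1a, 1.19e-05 to 0.28 for Sdc4, 7.85e-05 to 0.243 for Lrba and 0.000359 to 0.653 for Arl4d. The log2 fold change of Sdc4 was -4.18 without day 14 replicate 3. It was -3.16 for Sdc4 and -0.82 for Arl4d against day 7 replicates 1 and 2 alone, and -2.33 and -1.48 against day 7 replicates 3, 4 and 5 alone. Ctsw, a cathepsin of cytotoxic cells, stood at 1731, 1903, 1453, 1642 and 1463 CPM at day 7 and at 959.5, 1192 and 1092 CPM at day 14. It was named by the rule to bring the lower genes to 10. It was below the fold required and so not called (log2 fold change -0.60 ± 0.12, adjusted p = 0.0223, edgeR), and it overlaps Fibp.

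Of the 21 tested genes of cytotoxic granules and death ligands, 14 had a positive log2 fold change, the median was 0.34, 2 were called higher and 0 lower (7 and 2 at an unadjusted p under 0.05, and 2 and 0 by DESeq2 with default settings). The share called higher was 9.52%, against 0.246% of all genes tested. The median was 0.05 against day 7 replicates 1 and 2 alone, with 0 calls, and 0.50 against day 7 replicates 3, 4 and 5 alone, with 4 called higher. Gzmk, a granzyme of lower killing activity, stood at 4.09, 13.2, 17.8, 11.9 and 14.2 CPM at day 7 and at 67.1, 49.96 and 78.4 CPM at day 14, with no overlap (log2 fold change 2.41 ± 0.49, adjusted p = 0.0261 in edgeR's quasi-likelihood test). Serpinb6b, an intracellular serpin, stood at 555, 753, 632, 606 and 556 CPM at day 7 and at 1813, 1025 and 944 CPM at day 14, highest in day 14 replicate 1 (1.02 ± 0.19, adjusted p = 0.0124, edgeR). Serpinb9b, a related serpin chosen after its values were seen, stood at 436, 448, 206, 184 and 178 CPM at day 7 and at 1929, 749.7 and 572 CPM at day 14, so that day 14 replicate 1 was again the highest (1.90 ± 0.38, adjusted p = 0.0261, edgeR). Without that library the log2 fold change of Serpinb9b was 1.19, and against day 7 replicates 1 and 2 alone and day 7 replicates 3, 4 and 5 alone it was 1.29 and 2.51. These serpins belong to a family of near-identical genes that may share reads, and Serpinb9b overlaps Gm36099. The edgeR calls were lost for Gzmk without day 7 replicates 1, 4 or 5 or day 14 replicates 1 or 3 (adjusted p = 0.0514 to 0.102), Serpinb6b without day 7 replicates 1, 4 or 5 or day 14 replicate 1 (adjusted p = 0.0389 to 0.223) and Serpinb9b without day 7 replicates 3, 4 or 5 or day 14 replicate 1 (adjusted p = 0.0779 to 0.405). Without day 7 replicate 1 or 5 Serpinb6b missed the fold, at a log2 fold change of 0.99. Over all settings the adjusted p in edgeR or DESeq2 ran from 0.000154 to 0.219, 6.99e-07 to 0.289 and 4.7e-20 to 0.653.

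The main killing genes were not called. Gzma, which encodes granzyme A, stood at 11570, 12470, 5031, 4757 and 4445 CPM at day 7 and at 11070, 11790 and 8914 CPM at day 14, and Prf1, which encodes perforin, stood at 4639, 5271, 2933, 2811 and 2514 CPM at day 7 and at 4007, 4860 and 2809 CPM at day 14. In both genes day 7 replicates 3, 4 and 5 were lower than replicates 1 and 2. The log2 fold change of Gzma was 0.47 ± 0.28 with all libraries (adjusted p = 0.455, edgeR), -0.19 against day 7 replicates 1 and 2 and 1.16 against replicates 3, 4 and 5. That of Prf1 was 0.10 ± 0.22 (adjusted p = 0.885, edgeR), and -0.36 and 0.50 against the same subsets.

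Of 17 cytokine and chemokine genes tested, 10 had a positive log2 fold change, the median was 0.42, and edgeR called 1 higher (5.88%, against 0.246% of all genes tested) and 1 lower (against 0.0526%). At an unadjusted p under 0.05 they were 4 and 3, and DESeq2 called 1 higher and 2 lower. The median was -0.10 against day 7 replicates 1 and 2 alone, with 0 calls, and 0.69 against day 7 replicates 3, 4 and 5 alone, with 4 called higher and 1 lower. Spp1 (osteopontin), a secreted matrix protein and cytokine, stood at 86, 49, 64.5, 46.9 and 103 CPM at day 7 and at 533, 548 and 327 CPM at day 14, with no overlap (log2 fold change 2.75 ± 0.53, adjusted p = 0.0199 in edgeR's quasi-likelihood test). The edgeR call was lost for Spp1 without day 7 replicates 3 or 4 or day 14 replicate 1 (adjusted p = 0.0651 to 0.0917), with 1.95e-22 to 0.302 over all settings. Its level was 14.2 ± 7.86 CPM (SD, n = 4) in controls and 386 ± 145 CPM (n = 3) at RMA day 9. Ltb, which encodes lymphotoxin-β, stood at 59.8, 42.8, 184, 322 and 216 CPM at day 7 and at 11.6, 22 and 28 CPM at day 14. The day 14 libraries were lowest, and among day 7 libraries replicates 1 and 2 were closest to them. The log2 fold change of Ltb was -3.00 ± 0.65 (adjusted p = 0.0411, edgeR), -1.32 against day 7 replicates 1 and 2 alone and -3.55 against replicates 3, 4 and 5 alone. The edgeR call was lost for Ltb without day 7 replicates 3, 4 or 5 or day 14 replicates 1, 2 or 3 (adjusted p = 0.082 to 0.235), with 6.81e-13 to 0.685 over all settings.

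Ifng and Ccl3 differed with the split of the day 7 libraries. Ifng, which encodes interferon-γ and overlaps Gm49751, stood at 359.7, 390.5, 93.9, 58 and 72.2 CPM at day 7 and at 408, 349 and 512 CPM at day 14 (log2 fold change 1.12 ± 0.49, adjusted p = 0.37 in the edgeR test, 5.86e-05 to 1 over the other settings). Ccl3, a chemokine released on activation, stood at 1985, 1918, 318, 237 and 258 CPM at day 7 and at 1495, 1652 and 2030 CPM at day 14 (0.87 ± 0.59, adjusted p = 0.521, edgeR). In both genes day 7 replicates 1 and 2 were within the day 14 range. Against those libraries alone the log2 fold changes were 0.17 and -0.18. For day 7 replicates 3, 4 and 5 alone they were 2.5 and 2.67. Ccl5, a chemokine stored by NK cells, stood at 3954, 2803, 1729, 2423 and 2298 CPM at day 7 and at 5066, 3036 and 3882 CPM at day 14 (0.60 ± 0.21, adjusted p = 0.323, edgeR), with overlap between the groups. Serpine2, a secreted protease inhibitor, stood at 54.5, 40.5, 62, 27.6 and 77.8 CPM at day 7 and at 141, 134 and 142 CPM at day 14. Serpine2 was higher in all day 14 libraries, but it failed the adjustment (1.40 ± 0.43, adjusted p = 0.226, edgeR).

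In the list of galectins, S100 proteins and annexins 13 of 14 genes had a positive log2 fold change, the median was 0.44, 2 were called higher and 0 lower (6 and 0 at an unadjusted p under 0.05, and 2 and 0 by DESeq2). The share called higher was 14.3%, against 0.246% of all genes tested. The median was 0.24 against day 7 replicates 1 and 2 alone, with 0 calls, and 0.62 against day 7 replicates 3, 4 and 5 alone, with 2. Lgals3, which encodes galectin-3, a lectin that binds glycans of surface receptors, stood at 35.1, 46.2, 35.7, 27.5 and 34.2 CPM at day 7 and at 176, 124 and 62.2 CPM at day 14. Anxa5, a protein that binds phosphatidylserine, stood at 123, 108, 102, 58.1 and 117 CPM at day 7 and at 279.9, 194 and 252 CPM at day 14. The groups did not overlap in either gene. The log2 fold change of Lgals3 was 1.76 ± 0.25 and that of Anxa5 1.25 ± 0.22 (adjusted p = 0.00141 and 0.00939 in edgeR's quasi-likelihood test). The edgeR call of Lgals3 held whichever library was left out but not in every setting (1.64e-08 to 0.127), and that of Anxa5 was lost without day 14 replicate 1 (adjusted p = 0.0786, 6.37e-05 to 0.219 over all settings). Anxa2 and Anxa6, which bind membranes, had log2 fold changes of 0.52 ± 0.17 and -0.13 ± 0.11 and were not called, and Anxa2 overlaps Gm16144 and Mir3109. Anxa8, outside the list and chosen after its values were seen, stood at 37.3, 6.12, 5.74, 5 and 28.4 CPM at day 7 and at 442, 103 and 33.1 CPM at day 14. It was the called gene whose groups overlapped (3.54 ± 0.75, adjusted p = 0.0354, edgeR), and its log2 fold change was 2.05 without day 14 replicate 1. The edgeR call was lost for Anxa8 without day 7 replicates 2, 3, 4 or 5 or day 14 replicate 1 (adjusted p = 0.0628 to 0.477), with 3.01e-21 to 0.514 over all settings. Capg, which caps actin filaments and was also chosen after its values were seen, stood at 39.8, 49.6, 96.9, 58.8 and 82.4 CPM at day 7 and at 242, 156 and 129 CPM at day 14 (1.42 ± 0.30, adjusted p = 0.0342, edgeR), and its call was lost for Capg without day 7 replicates 1, 2 or 4 or day 14 replicate 1 (adjusted p = 0.0771 to 0.283), with 5.44e-05 to 0.283 over all settings.

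Of 25 apoptosis genes, 17 had a positive log2 fold change, the median was 0.22, and 1 was called higher and 0 lower (6 and 1 at an unadjusted p under 0.05, and 1 and 0 by DESeq2). The share called higher was 4%, against 0.246% of all genes tested. The median was 0.23 against day 7 replicates 1 and 2 alone, with 0 calls, and 0.30 against day 7 replicates 3, 4 and 5 alone, with 3 called higher. Casp8, the initiator caspase of death receptors, stood at 228, 232, 194, 177 and 171 CPM at day 7 and at 268, 254 and 223 CPM at day 14 (log2 fold change 0.31 ± 0.15), and Bcl2, which protects cells from death, stood at 206, 162, 219, 253 and 236 CPM at day 7 and at 351, 153 and 499 CPM at day 14 (0.63 ± 0.29). Neither was called, and both overlapped between the groups. In the annotation Casp8 overlaps Gm37760, and Bcl2 overlaps D630008O14Rik and Gm37053. Dap, a death-associated protein outside the list that was chosen after its values were seen, stood at 198, 162, 145, 158 and 198 CPM at day 7 and at 454, 325 and 384 CPM at day 14. All day 14 libraries were above all day 7 libraries (1.17 ± 0.19, adjusted p = 0.00341, edgeR, 3.76e-06 to 0.155 over all settings). The call held whichever library was left out. Stard4, a carrier of cholesterol in the cell chosen in the same way, stood at 13.6, 14.5, 25.7, 23.4 and 22.9 CPM at day 7 and at 83.2, 39.8 and 118 CPM at day 14 (2.00 ± 0.36, adjusted p = 0.00958, edgeR), and its call was lost for Stard4 without day 14 replicate 3 (adjusted p = 0.0791), with 5.59e-05 to 0.1 over all settings.

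Immediate early genes, which cells transcribe within minutes of a stimulus, could not be compared apart from the split of the day 7 libraries. The sum of the immediate early and stress response list was 20700, 18980, 3605, 4047 and 4081 CPM at day 7 and 16050, 13720 and 17540 CPM at day 14. Of the 33 tested genes, 28 had a positive log2 fold change and the median was 0.62. edgeR called 0 of them (6 at an unadjusted p under 0.05), and DESeq2 called 2. The median was -0.18 against day 7 replicates 1 and 2 alone and 1.66 against day 7 replicates 3, 4 and 5 alone. In the latter fit 14 genes of the list were called higher, against 124 of all 16798 genes tested. Junb, an AP-1 subunit that overlaps Prdx2, stood at 3421, 3020, 499, 530.1 and 495 CPM at day 7 and at 1828, 2068 and 2232 CPM at day 14, and Btg2, a brake on proliferation, stood at 2521, 2094, 468, 601 and 535 CPM at day 7 and at 1173, 1234 and 1566 CPM at day 14. Both were lower at day 14 than in day 7 replicates 1 and 2 and higher than in day 7 replicates 3, 4 and 5. For Fos the log2 fold change was 1.01 ± 0.72 with all libraries (adjusted p = 0.544 in the edgeR test), -0.15 and 3.52 against these subsets, and for Jun it was 0.45 ± 0.62 (adjusted p = 0.802, edgeR), -0.64 and 2.45. Cd69, an early activation antigen, stood at 379.9, 359, 102, 90.8 and 120.1 CPM at day 7 and at 615, 334 and 706 CPM at day 14 (log2 fold change 1.39 ± 0.47, adjusted p = 0.299, edgeR). It was 0.58 and 2.40 against the subsets. The sums in control libraries ran from 4193 to 18920 CPM.

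edgeR called no gene of the 2 interferon lists, and neither did DESeq2. Of 34 type I interferon-stimulated genes, 24 had a positive log2 fold change (median 0.23, with 4 higher and 0 lower at an unadjusted p under 0.05), and of 26 interferon-γ-induced genes 11 did (median -0.14, 2 and 3). Trim30a, an interferon-induced regulator of innate signaling, stood at 157, 192, 253, 199.6 and 216 CPM at day 7 and at 236, 216 and 258 CPM at day 14 (log2 fold change 0.22 ± 0.17). Irf8, a transcription factor induced by interferon-γ, stood at 1505, 1441, 951, 1082 and 794 CPM at day 7 and at 1685, 1607 and 1036 CPM at day 14 (0.32 ± 0.21). The groups overlapped in both genes, and also in the type I gene Lgals3bp, which encodes a secreted glycoprotein, and in the interferon-γ gene Serpina3g, which encodes a protease inhibitor. Lgals3bp stood at 515, 381, 598, 563 and 808 CPM at day 7 and at 655, 656 and 619.7 CPM at day 14 (0.17 ± 0.25). Serpina3g stood at 574, 519, 966, 861 and 1103 CPM at day 7 and at 857, 567 and 589 CPM at day 14 (-0.26 ± 0.25).

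edgeR called no gene of the cytokine receptor pathway lists, and DESeq2 with default settings called 1 lower in the IL-2 and IL-15 list. At an unadjusted p under 0.05 the genes higher and lower were 4 and 4 in the IL-2 and IL-15 list, 7 and 2 in the IL-12 and IL-18 list and 0 and 1 in the TGF-beta list. The IL-2 and IL-15 receptor and STAT5 list had 11 of 24 positive log2 fold changes and a median of -0.11, and Il2rb, the chain shared by both receptors, stood at 3304, 2474, 3123, 3711 and 3333 CPM at day 7 and at 2224, 3524 and 2622 CPM at day 14 (log2 fold change -0.19 ± 0.16). Jak1, a kinase of these receptors that overlaps Raver2 and Gm24468, stood at 2754, 2918, 2274, 2061 and 2096 CPM at day 7 and at 3743, 2433 and 2917 CPM at day 14 (0.32 ± 0.13). The IL-12 and IL-18 list had 11 of 20 positive values and a median of 0.28, which was 0.01 against day 7 replicates 1 and 2 alone and 0.85 against day 7 replicates 3, 4 and 5 alone. Ifngr1, a chain of the interferon-γ receptor, stood at 1721, 1793, 1032, 992 and 1015 CPM at day 7 and at 3867, 1461 and 1528 CPM at day 14, and day 14 replicate 1 was by far the highest (0.80 ± 0.25, adjusted p = 0.268 in edgeR's quasi-likelihood test, and 0.19 without that library). Its log2 fold changes against the 2 subsets of day 7, in the same order, were 0.37 and 1.17. In the TGF-beta pathway list, which holds genes known to restrain NK cells, 6 of 17 were positive, with a median of -0.09. Tgfbr2, the receptor chain that binds the ligand, stood at 304, 219, 244, 239.6 and 306 CPM at day 7 and at 172, 216 and 171 CPM at day 14 (-0.50 ± 0.19, adjusted p = 0.351, edgeR), and all day 14 libraries were below all day 7 libraries. Smad3, which carries the signal to the nucleus, stood at 407, 402, 405, 238 and 254 CPM at day 7 and at 225, 308 and 426 CPM at day 14, with overlap (-0.09 ± 0.26).

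edgeR called no gene of the metabolic lists, and DESeq2 called 0 with default settings and, with its beta prior, 1 lower in the mTORC1 list. The medians were 0.11 for glycolysis (9 of 15 positive), 0.02 for oxidative phosphorylation (27 of 49) and -0.10 for mTORC1, nutrient and MYC genes (14 of 29). Ldha, which makes lactate, stood at 705, 750.5, 932, 732 and 996 CPM at day 7 and at 1050, 1312 and 884 CPM at day 14 (log2 fold change 0.39 ± 0.17). Atp5b, a subunit of ATP synthase, stood at 1262, 1401, 1688, 1409 and 1572 CPM at day 7 and at 1192, 1814 and 1148 CPM at day 14 (-0.08 ± 0.14). Ncl (nucleolin), a MYC target of ribosome production, stood at 298, 375, 570.5, 422 and 545 CPM at day 7 and at 366, 337 and 338 CPM at day 14 (-0.35 ± 0.19). The groups overlapped in each. Atp5a1, another subunit, which overlaps Haus1, stood at 928, 1132, 1126, 916 and 1151 CPM at day 7 and at 1019, 1082 and 762 CPM at day 14 (-0.14 ± 0.12). Pfkp, an enzyme of glycolysis that overlaps Pitrm1, stood at 578, 715, 504, 445 and 483 CPM at day 7 and at 854, 777 and 599.5 CPM at day 14 (0.45 ± 0.17), and the groups overlapped in both. Pik3r1, a regulatory subunit of PI3 kinase that overlaps Gm36638, stood at 561, 597, 347, 310 and 343 CPM at day 7 and at 784, 603 and 714 CPM at day 14. Each day 14 library of Pik3r1 was above all day 7 libraries, and it failed the adjustment (0.70 ± 0.22, adjusted p = 0.268, edgeR). The fold change of Pik3r1, as log2, was 0.27 against day 7 replicates 1 and 2 alone and 1.07 against day 7 replicates 3, 4 and 5 alone. Over the 11 lists without a call by edgeR's quasi-likelihood test, which hold 303 tested entries, 63 had an unadjusted p under 0.05 (41 higher and 22 lower), and DESeq2 called 5 with default settings and 5 with its beta prior.

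The lists whose medians against the subsets are not given above were those of type I interferon (0.65 against day 7 replicates 1 and 2 alone and 0.06 against day 7 replicates 3, 4 and 5 alone), interferon-γ (0.12 and -0.16), inhibitory receptors and phosphatases (0.06 and 0.28) and IL-2 and IL-15 (-0.06 and 0.04). The medians were 0.04 and -0.14 for mTORC1, nutrient and MYC genes, 0.11 and -0.01 for glycolysis, 0.05 and -0.01 for oxidative phosphorylation and -0.37 and 0.11 for the TGF-beta pathway. Against day 7 replicates 3, 4 and 5 alone edgeR called 124 of all 16798 genes tested higher. Among them were 4 genes in the IL-12 and IL-18 list and 2 in the list of inhibitory receptors and phosphatases. There was 1 each in the IL-2 and IL-15 and the mTORC1, nutrient and MYC lists. With all day 7 libraries these lists held 20, 30, 24 and 29 tested genes, in the same order.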

How the data were processed

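Polyadenylated RNA of NK cells sorted from mouse spleens was sequenced in 24 libraries. The deposited table holds gene counts that the authors made by trimming reads with cutadapt 1.10, removing ribosomal RNA reads with Bowtie2 2.2.8, aligning the rest to mm10 with STAR 2.5.3a and counting with HTSeq 0.6.1p1. Of its 112 columns the 24 count columns were used. The 48 other columns of per-sample values were not used, nor were the authors' fold changes and p-values, which came from DESeq2 1.16.1. The strand setting of the counting is not given in the sources used here. Genes carry the symbols of the deposited table.

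Groups were taken from the sample labels. Counts of all 24 libraries were fitted with 1 mean per group (7 groups) in edgeR 4.0.16 (R 4.3.3, limma 3.58.1), with TMM scaling, genes kept by filterByExpr, robust quasi-likelihood F tests (2-sided) and Benjamini-Hochberg adjustment over the 17097 genes kept of 45237. Calls needed an adjusted p below 0.05 together with a fold larger than 2. Standard errors are log2 fold changes divided by the square root of F. The difference between the tumors was tested as a contrast of contrasts. The totals of the 8 libraries ran from 8131589 to 14863500 counts. The floor of 3 counts corresponds to 0.344 normalized CPM at the lowest depth after TMM scaling. The code was tested on simulated data.

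Genes were named by rule: the 10 highest and 10 lowest log2 fold changes among called genes without overlap between the groups (filled by the smallest unadjusted p where fewer were called), up to 4 called members of each list by smallest p, the 2 most abundant members of each list, genes known from the study for their RNA or as checkpoint proteins, and Fos and Jun, which mark the split of the day 7 libraries. Pdcd1 was below the filter. Genes outside the rule are marked in the text. The 20 functional and 10 marker lists hold 631 symbols, of which 627 were matched and 577 tested. The members and the lists were chosen with earlier results of these data known. Lists are described by counts and medians, with no set test. Promoters were taken from RefSeq annotation of GRCm38.p6.

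The alternatives were DESeq2 size factors, total counts as the only scaling, DESeq2 1.42.0 with default settings and with a beta prior, a minimum of 10 counts in each library, no low-count filter, only the groups compared, the replicate number as a block, adjusted p alone, 8 leave-one-out fits, and day 7 replicates 1 and 2 or 3, 4 and 5 only.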

Additional observations from a re-analysis of the deposited data

Results flagged for a closer look

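Normalized CPM of Itgad was 18.46 in day 7 replicate 2, far from the other day 7 libraries, which ran from 41.43 to 48.06. The gap to the nearest of them was 0.776 of the whole range of the group, above the limit of 0.71 for 5 samples. Chance alone gives such a gap in about 1 in 20 groups, and 127 groups of values were examined. The cause was not tested.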

How the results depend on the processing

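Against 42 genes higher and 9 lower, DESeq2 with default settings called 115 and 149, DESeq2 with the beta prior 95 and 57, and no filter on low counts 177 and 86. At least 10 counts in every library gave 46 and 22, with 7800 genes tested. Only the groups compared gave 19 and 0. Day 7 replicates 1 and 2 alone gave 6 and 3, and day 7 replicates 3, 4 and 5 alone 124 and 51. DESeq2 size factors gave 41 and 10, and total counts as the only scaling, which moved the median of all genes from -0.16 to -0.24, gave 35 and 12. Leaving out 1 library at a time gave 17 to 43 higher and 2 to 23 lower. The cause was not tested beyond the smaller numbers of libraries or genes in some settings.

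With the replicate number as a block the calls were 12 and 4. Libraries of the same number deviated from their group means without relation (r = -0.00634, -0.0105 and -0.0161 across genes), so that they share a number only, and the effect of the block on the calls is not a measure of the size of any difference.

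The difference between the tumors, with 0 calls by edgeR and 1847 genes at an unadjusted p under 0.05, had 72 with DESeq2 at default settings, 17 with the beta prior, 122 with no filter, 14 with only the groups compared and 1 with day 7 replicates 3, 4 and 5 alone. Leaving out 1 library gave 0 to 1.

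Of 96 named genes tested, 46 were called, and none of these changed direction in the 19 other settings. The number still called was 5 against day 7 replicates 1 and 2 alone, 37 against day 7 replicates 3, 4 and 5 alone, 15 with only the groups compared, 15 with the replicate block, and 18 to 35 when 1 library was left out. Of the 50 not called, 18 passed the threshold in some setting and 22 changed direction in some setting, and the cause was not tested. With the replicate block the log2 fold change was 0.16 for Mcm5, -0.19 for Junb, -0.28 for Btg2, -0.08 for Cd244a, -0.12 for Prf1 and -0.18 for Jun. With total counts as the only scaling it was -0.00 for Cd244a. Against day 7 replicates 1 and 2 alone it was 1.12 for Mcm5, -0.66 for Junb, -0.80 for Btg2, -0.04 for Irf8, 0.29 for Serpina3g, -0.33 for Cd244a and -0.02 for Bhlhe40. It was -0.19 for Gzma, -0.36 for Prf1, -0.18 for Ccl3, 0.04 for Ncl, 0.05 for Atp5b, -0.15 for Fos and -0.64 for Jun. Against day 7 replicates 3, 4 and 5 alone it was -0.03 for Lgals3bp, 0.27 for Id2, 0.24 for Klrk1, 0.30 for Klri2, 0.12 for Dok2, 0.22 for Itgb2 and 0.10 for Smad3.

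Leaving out 1 library at a time gave log2 fold changes of -0.21 to 0.04 for Atp5a1, -0.30 to 0.08 for Atp5b, -0.12 to 0.52 for Btg2, -0.03 to 0.21 for Cd244a, -0.22 to 0.08 for Id2 and -0.18 to 0.04 for Itgb2. They were -0.22 to 0.12 for Klri2, -0.18 to 0.18 for Klrk1, -0.54 to 0.16 for Mcm5, -0.07 to 0.32 for Prf1 and -0.32 to 0.11 for Smad3.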
